A study of Mus musculus with 20 samples.

Results

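The 10 genes studied here mark mast cells, basophils and eosinophils, and they were measured in bone marrow and kidney of mice given oxaliplatin, a platinum chemotherapy drug. The genes were Cpa3, Mcpt4, Cma1, Tpsb2, Ms4a2, Fcer1a, Mcpt8, Prss34, Prg2 and Epx, chosen by symbol, and all 10 were found among the 55486 genes of each tissue's count table. C57BL/6 mice, 10 weeks old at the start and of both sexes per the study's methods, received 10 mg/kg oxaliplatin intraperitoneally over 8 weeks, or the 5% dextrose vehicle alone, and tissue was taken 6 days after the last dose. There were 5 libraries of bone marrow (tibia and femur) and 5 of kidney in each treatment group, 20 in all. The labels call them biological replicates. Whether a marrow and a kidney library of one number came from one animal is not stated. All 20 libraries held counts of the Y-linked genes Ddx3y, Eif2s3y, Kdm5d and Uty, at least 752 of each in marrow and 396 in kidney. Every library thus had Y-linked expression, as from males, although the methods name both sexes.

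Mast cells, basophils and eosinophils are rare granulocytes that arise from marrow progenitors and act in allergy and in defence against parasites. Mast cells leave the marrow as progenitors and fill their granules in connective tissue and mucosa, where they store chymases, tryptases and carboxypeptidase A3. Basophils and eosinophils mature in the marrow; basophils carry their own granule proteases, and eosinophils store basic proteins and a peroxidase.

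The 10 genes did not move as one group in marrow. The granule proteases of mature mast cells, Mcpt4, Cma1 and Tpsb2, went from 0 to 2 counts in each vehicle mouse to between 20 and 316 counts in each oxaliplatin mouse. The basophil proteases Mcpt8 and Prss34, the eosinophil granule genes Prg2 and Epx, and the IgE receptor beta chain gene Ms4a2 fell. Cpa3 and Fcer1a did not pass the test. In kidney none of the 10 genes passed the filter on low counts.

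The genes lie on 7 chromosomes in the GRCm38 build, and all are protein coding. Cma1 (chr14:55941451-55944675), Mcpt4 (chr14:56059629-56062313) and Mcpt8 (chr14:56082166-56085273) lie within 143.8 kb of one another, on the minus strand, so that 2 genes that rose and 1 that fell share one cluster. Prss34 (chr17:25298394-25300165) and Tpsb2 (chr17:25366305-25369098) lie within 70.7 kb on the plus strand and also moved in opposite directions. The others stand alone: Cpa3 (chr3:20215620-20242181), Ms4a2 (chr19:11615523-11623719), Fcer1a (chr1:173221284-173227214), Prg2 (chr2:84980461-84983632) and Epx (chr11:87864000-87875536). No exon of the 10 genes overlaps an exon of another gene. Of the 50-base stretches in their transcripts, 5.48% in Mcpt4 (with Cma2 and Mcpt9), 5.38% in Cma1 (with Gm48934) and 2.10% in Ms4a2 (with Ms4a4b) also occur in another gene, and 0% in the other genes.

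Start-site sequence was read for the proteases of the chromosome 14 cluster, for Prss34 and for Ms4a2, because these neighbouring or lineage-related genes differed in direction. Each window runs from 250 bases before to 50 bases after the start in RefSeq's GRCm38.p6 table, which held 8 of the 10 genes. Capitals mark GATA motifs (AGATAA or TGATAA) and E-boxes (CATGTG or CACGTG), searched on both strands, and the genes are at chr14:56062261-56062560 (minus strand), chr14:55944626-55944925 (minus strand), chr14:56085148-56085447 (minus strand), chr17:25298144-25298443 (plus strand) and chr19:11623670-11623969 (minus strand).
Mcpt4: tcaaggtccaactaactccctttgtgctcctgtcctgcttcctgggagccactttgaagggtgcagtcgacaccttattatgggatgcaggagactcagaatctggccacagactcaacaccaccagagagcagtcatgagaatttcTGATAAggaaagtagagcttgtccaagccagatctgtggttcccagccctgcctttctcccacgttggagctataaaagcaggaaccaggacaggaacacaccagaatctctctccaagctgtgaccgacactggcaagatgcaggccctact
Cma1: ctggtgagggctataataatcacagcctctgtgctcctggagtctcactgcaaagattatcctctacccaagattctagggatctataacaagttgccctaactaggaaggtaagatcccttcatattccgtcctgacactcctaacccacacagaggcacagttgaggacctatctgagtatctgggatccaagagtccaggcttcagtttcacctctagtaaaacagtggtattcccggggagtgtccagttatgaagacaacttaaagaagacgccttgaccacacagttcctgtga
Mcpt8: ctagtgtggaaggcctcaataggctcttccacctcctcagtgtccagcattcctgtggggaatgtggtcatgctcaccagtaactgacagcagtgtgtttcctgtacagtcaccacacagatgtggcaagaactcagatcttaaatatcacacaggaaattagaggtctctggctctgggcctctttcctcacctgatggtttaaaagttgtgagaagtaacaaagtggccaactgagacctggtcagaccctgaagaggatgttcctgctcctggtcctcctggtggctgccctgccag
Prss34: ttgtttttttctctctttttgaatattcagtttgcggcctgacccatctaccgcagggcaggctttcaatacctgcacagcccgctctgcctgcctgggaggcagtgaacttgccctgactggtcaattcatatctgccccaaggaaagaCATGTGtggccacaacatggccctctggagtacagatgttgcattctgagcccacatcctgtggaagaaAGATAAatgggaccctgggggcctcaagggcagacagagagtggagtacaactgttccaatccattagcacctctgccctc
Ms4a2: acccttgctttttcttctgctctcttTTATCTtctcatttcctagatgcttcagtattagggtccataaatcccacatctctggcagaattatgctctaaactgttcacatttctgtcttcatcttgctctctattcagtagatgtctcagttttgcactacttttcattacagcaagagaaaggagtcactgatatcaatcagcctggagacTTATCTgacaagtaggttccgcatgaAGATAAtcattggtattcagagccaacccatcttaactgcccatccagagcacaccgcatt

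A GATA motif stood in 5 of the 8 windows and an E-box in 2, where 18.6% and 20.4% of all 32851 promoter windows hold one. Mcpt4 had a GATA motif 103 bases before the start and Prss34 had one 31 bases before it, while Ms4a2 had 3, the nearest 11 bases before the start. The windows of Cma1, Mcpt8 and Epx held neither. A GATA motif thus stood in the windows of a gene that rose (Mcpt4) and of genes that fell (Prss34, Ms4a2). A match of letters is a description of the sequence, not a bound site.

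Library totals ran from 30660153 to 41140527 counts in marrow and from 24393007 to 30925430 in kidney. Levels are given as raw counts and as CPM, counts scaled to a common library size with edgeR's TMM factors. A gene was called where its adjusted p was under 0.05 and its fold change beyond 1.5. The 8 neutrophil markers summed to between 10206 and 26392 CPM in marrow and at most 2.70 CPM in kidney, and the 6 kidney tubule markers to between 15834 and 19871 CPM in kidney and at most 11.6 CPM in marrow, so each tissue carried its own markers. Oxaliplatin mouse 3 stood apart in marrow for several gene groups, and each call on the 10 genes held without it. Mcpt8 held only narrowly (edgeR, adjusted p = 0.0467), and the calls of Mcpt4, Cma1 and Tpsb2 were fixed by the filter on low counts. In bulk RNA, fewer cells of a type and less RNA per cell cannot be told apart, and this holds for every fall below.

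**Figure D1:**
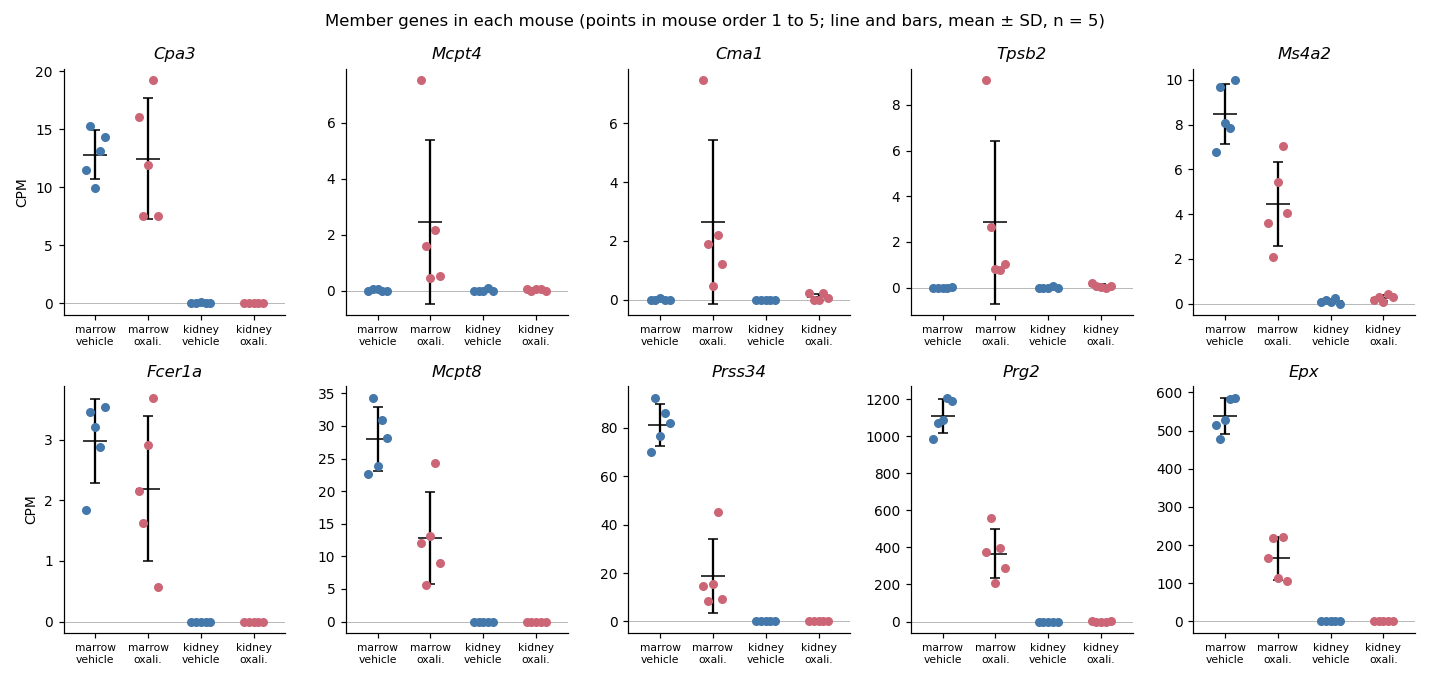
CPM of each of the 10 genes in every mouse, by tissue and treatment, with the mean and SD of 5 mice. Mcpt4, Cma1 and Tpsb2 sit at or near 0 in vehicle marrow (at most 2 counts) and reach 7.55, 7.49 and 9.10 CPM in oxaliplatin mouse 1, Prss34, Prg2 and Epx are lower in all 5 oxaliplatin mice, and every gene is near 0 in kidney.

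In vehicle marrow the genes differed widely in level. Per kilobase of exon, Prg2, the eosinophil major basic protein, stood at 1323 CPM per kb (SD 109, n = 5), followed by the eosinophil peroxidase Epx at 196 (SD 16.9), Prss34 at 66.7 (SD 7.10), Mcpt8 at 28.0 (SD 4.90) and Cpa3 at 8.45 (SD 1.41). Ms4a2 at 3.01 (SD 0.479) and Fcer1a at 2.99 (SD 0.695) had overlapping ranges and could not be ordered. Mcpt4, Cma1 and Tpsb2 were at or under a floor of 3 counts in every vehicle library. The eosinophil granule genes thus led, the basophil proteases came next, and the mature mast cell proteases were not detectable above the floor.

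Mcpt4, a chymase of connective tissue mast cells, had 0, 2, 2, 0 and 0 counts in the 5 vehicle marrow libraries and 262, 51, 20, 98 and 20 in the 5 oxaliplatin libraries. Cma1, the mast cell chymase, had 0, 0, 2, 0 and 0 counts against 260, 60, 20, 99 and 45. Tpsb2, a mast cell tryptase, had 0, 0, 0, 0 and 1 count against 316, 84, 35, 34 and 38. For each gene every oxaliplatin mouse stood above every vehicle mouse, and oxaliplatin mouse 1 was far above the others.

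The 3 genes passed the filter on low counts only through the oxaliplatin group. The ratio of summed, library-scaled counts, oxaliplatin over vehicle, was 96.3 for Mcpt4 (95% interval 37.3 to 355), 207 for Cma1 (56.9 to 1711) and 433 for Tpsb2 (77.3 to 17132), by an exact binomial interval that covers counting error only. edgeR called all 3, but a gene that passes the filter in this way had to differ, so the counts themselves are the result. The fitted folds depend on single libraries and on the prior count. Without oxaliplatin mouse 1 they went from 88.1 to 43.0 for Mcpt4, from 168 to 91.5 for Cma1 and from 296 to 135 for Tpsb2. Without vehicle mouse 3 they were 132 for Mcpt4 and 760 for Cma1, and without vehicle mouse 5 the fold of Tpsb2 was 823. Their oxaliplatin means were 2.47, 2.65 and 2.87 CPM (SD 2.93, 2.79 and 3.57, n = 5). Per kilobase of exon that was 2.23 CPM for Mcpt4, 2.43 for Cma1 and 1.80 for Tpsb2, with ranges that overlapped those of Fcer1a (2.20) and Ms4a2 (1.58) in the same mice.

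Cpa3, the carboxypeptidase that is made in mast cells, basophils and their progenitors, did not follow the other mast cell proteases. Vehicle marrow held 362, 524, 316, 462 and 440 counts and oxaliplatin marrow 559, 240, 511, 866 and 279. The groups overlapped on both sides, and the log2 fold change was -0.04 (SE 0.25, 95% interval -0.58 to 0.50, adjusted p = 0.923). The spread was wider with oxaliplatin (SD 5.21 CPM) than with vehicle (SD 2.14 CPM), with oxaliplatin mice 1 and 4 above and mice 2 and 5 below all vehicle mice.

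Of the 2 genes here that encode the high-affinity IgE receptor of mast cells and basophils, Ms4a2 passed the test and Fcer1a did not; a difference between them was not tested. Ms4a2, the beta chain, had 214, 333, 256, 276 and 308 counts with vehicle and 125, 67, 233, 316 and 151 with oxaliplatin, and 4 of 5 oxaliplatin mice lay below all vehicle mice in CPM. It was lower by 1.90-fold (log2 fold change -0.93, SE 0.27, adjusted p = 0.0164). Fcer1a, the IgE-binding alpha chain, stood at 1.84, 3.46, 3.21, 2.88 and 3.54 CPM with vehicle and 2.16, 1.63, 2.91, 3.69 and 0.566 CPM with oxaliplatin. Its log2 fold change of -0.44 (SE 0.38, 95% interval -1.27 to 0.39, adjusted p = 0.422) did not pass, and oxaliplatin mouse 4 was the highest of all 10 mice.

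Both basophil proteases fell. Mcpt8, whose product marks mouse basophils, had 713, 1180, 758, 1087 and 866 counts with vehicle and 416, 181, 564, 1089 and 332 with oxaliplatin. It was lower by 2.18-fold (log2 fold change -1.13, SE 0.31, adjusted p = 0.0144), with oxaliplatin mouse 4 inside the vehicle range. Prss34, a second basophil serine protease, had 2207, 3177, 2428, 3014 and 2522 counts against 514, 274, 672, 2037 and 351. It was lower by 4.32-fold (log2 fold change -2.11, SE 0.41, adjusted p = 0.0021), and all 5 oxaliplatin mice lay below all vehicle mice. Mouse 4 was again the highest, and without it the fall was 6.69-fold.

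Both eosinophil granule genes fell, and the oxaliplatin mice differed in level. Prg2 had 31144, 36836, 34599, 42390 and 36577 counts with vehicle and 13095, 17863, 8834, 17825 and 10693 with oxaliplatin, 3.03-fold lower (log2 fold change -1.60, SE 0.21, adjusted p = 8.35e-05). Epx had 16265, 16417, 16759, 20424 and 18040 counts against 5736, 6995, 4903, 9944 and 3911, 3.26-fold lower (log2 fold change -1.70, SE 0.20, adjusted p = 3.07e-05). Neither gene's groups overlapped. Against the vehicle mean, Prg2 was 1.98-fold lower in mouse 2 and 5.39-fold lower in mouse 3, and Epx was 2.43-fold lower in mouse 4 and 5.10-fold lower in mouse 5.

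Of the 7 genes with counts in every marrow library 5 were called, all lower, and with the 3 mast cell proteases, which passed the filter only through the oxaliplatin group, the calls came to 8 of 10. Over the 22363 genes tested 23.3% were called, 11.6% higher and 11.8% lower, and 24.9% had groups that did not overlap. Among the 7 genes with counts in every library, the groups of Prss34, Prg2 and Epx did not overlap. Those of Mcpt4, Cma1 and Tpsb2 did not either, but the filter they passed fixed that outcome. The median log2 fold change over all genes tested was -0.04, and scaling by library size alone moved it to 0.11 and turned Cpa3's sign, while the 8 called genes kept their directions.

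**Figure D2:**
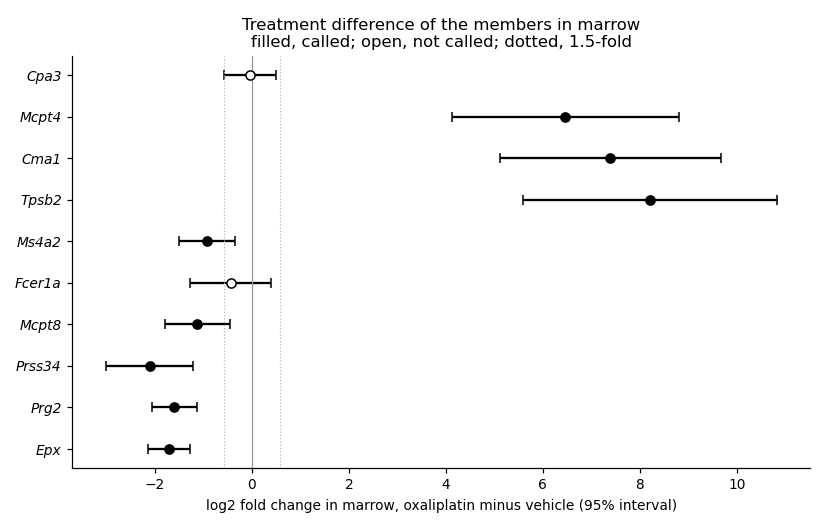
log2 fold change in marrow, oxaliplatin minus vehicle, with its 95% interval for each of the 10 genes. Tpsb2, Cma1 and Mcpt4 lie at 8.21, 7.39 and 6.46, fitted values that depend on the prior count, Cpa3 and Fcer1a straddle 0, and Ms4a2 to Prss34 lie between -0.93 and -2.11.

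The difference in log2 CPM between a gene of each of 2 lineages was also taken within each mouse, over 3 pairs. Epx minus Mcpt8, the pair with counts in every library, changed by -0.50 (two-sided exact permutation test over 252 divisions, p = 0.270), from 4.28 (SD 0.29) to 3.78 (SD 0.87), and the groups overlapped. That value depends on oxaliplatin mouse 2: without it the change was -0.87. No adjusted p is given for that change, because the adjustment ran over all 3 pairs, including the 2 with Cma1. For the 2 pairs with Cma1 the vehicle values rest on a gene at or under the floor and so on the prior count, and no test is given. Cma1 minus Mcpt8 had a mean of -8.73 (SD 0.64) with vehicle and -2.63 (SD 1.56) with oxaliplatin, and Cma1 minus Epx -13.0 (SD 0.51) and -6.41 (SD 1.21).

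**Figure D3:**
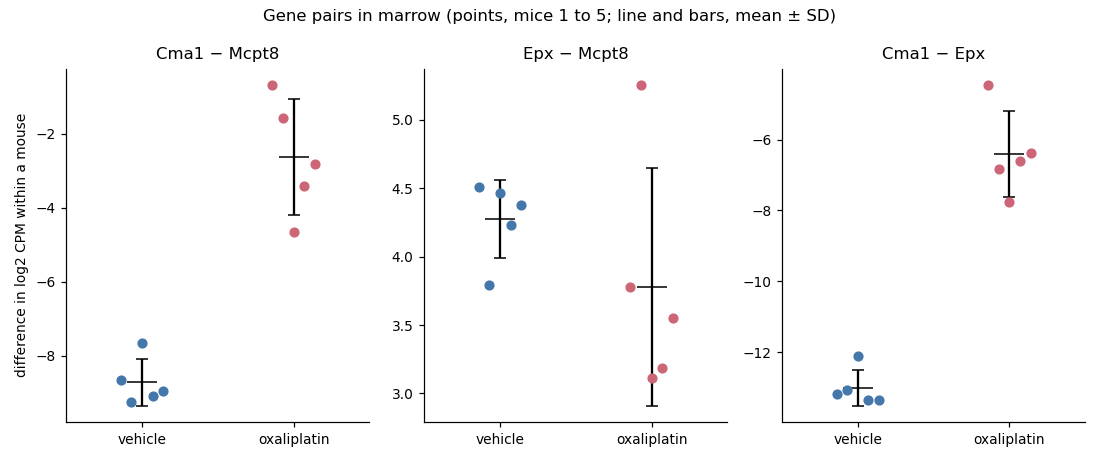
Difference in log2 CPM between the 2 genes of a pair in each marrow mouse, with mean and SD of 5 mice. In the Cma1 pairs the vehicle points rest on Cma1 counts of 0 to 2, and Epx minus Mcpt8 overlaps between groups, with oxaliplatin mouse 2 highest at 5.26.

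Among oxaliplatin mice the genes did not share an order. Mouse 1 was highest for Mcpt4, Cma1 and Tpsb2, mouse 4 for Cpa3, Ms4a2, Fcer1a, Mcpt8, Prss34 and Epx, and mouse 2 for Prg2. After the group means were removed, Mcpt8's log2 CPM over the 10 mice was most like that of Pald1 (Pearson r = 0.967), Nbas (0.966), Prss34 (0.941), Ktn1 (0.938) and Sh3bp4 (0.936) among 14648 genes. Cpa3 was most like Cd1d1 (0.950), Igkj4 (0.943), Mfng (0.936), Tef (0.932) and Mcam (0.930), and Epx most like Ppfibp2 (0.929), Igsf8 (0.901), Igkc (0.891), Col23a1 (0.889) and Ttc39c (0.887). These are descriptions over libraries that share their depth and composition, and Prss34 was the 1 gene of the 10 among those 15.

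Other genes of the 3 cell types were read from lists of known genes. Over all genes tested in marrow 23.3% were called, 11.6% higher and 11.8% lower. Of 11 mast cell proteases 5 passed the filter and 3 were called, all of them named above. Tpsab1, a second tryptase, had 2, 0, 0, 0 and 1 counts with vehicle and 21, 0, 4, 7 and 4 with oxaliplatin. The receptor gene Mrgprb1 had 0, 0, 0, 0 and 6 counts against 30, 16, 3, 6 and 12. Both were too low to test, and oxaliplatin mouse 1 had the highest count of each. These 2 genes were chosen after their values were seen, and the other untested genes of their lists are not given here. Of 15 other mast cell genes 13 passed, 4 were higher and 5 lower (69.2% called). Ltc4s, leukotriene C4 synthase, was higher by 1.49 on the log2 scale (SE 0.36, adjusted p = 0.00595), as were Rab27b, a GTPase of granule exocytosis, by 1.11 (SE 0.19) and Mitf, a mast cell transcription factor, by 1.03 (SE 0.14). Rab27b had 2004 to 3185 counts with vehicle and 4349 to 5563 in 4 oxaliplatin mice, with 10598 in mouse 3. Il1rl1, the IL-33 receptor, fell by 1.47 (SE 0.17, adjusted p = 2.73e-05). Adora3 fell by 0.86 (SE 0.30), Cyp11a1 by 0.75 (SE 0.27), Ndst2 by 0.72 (SE 0.09) and Hdc by 0.61 (SE 0.15). Maob was higher by 0.95 (SE 0.22). The list's median log2 fold change was -0.33, so its genes did not rise as a group. Kit, the stem cell factor receptor, had a log2 fold change of -0.33 (SE 0.11, adjusted p = 0.0323), under the 1.5-fold limit.

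Of 9 basophil genes 8 passed and 3 were called (37.5%), all lower. These were the 2 proteases and Cd200r3, an activating receptor, lower by 1.61 on the log2 scale (SE 0.39, adjusted p = 0.00565). Since the proteases were already described, only Cd200r3 adds to them. The other 5 were not called by edgeR. Grm6 was at -1.60 (adjusted p = 0.0549) and Il18r1 at -0.29 (adjusted p = 0.436). Itga2 (0.07), Il4 (0.11) and Il3ra (0.39, adjusted p = 0.0334, under the 1.5-fold limit) were positive. The list thus did not fall as a whole. Of 13 eosinophil genes, which include Prg2 and Epx, 12 passed, and 9 were lower and 1 higher (83.3% called). The median log2 fold change over those 12 was -1.63. Prg3, a second major basic protein, fell by 2.06 (SE 0.18), Ccr3, the eotaxin receptor, by 2.03 (SE 0.18) and Ear6, an eosinophil-associated ribonuclease, by 1.85 (SE 0.24). Rnase2a, from the same ribonuclease family, went the other way, with 2, 6, 3, 3 and 2 counts in vehicle mice and 711, 999, 47, 157 and 666 in oxaliplatin mice, and it passed the filter only through them. The ratio of its summed counts was 138 (95% interval 84.6 to 241, counting error only).

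Of 15 genes of the IgE receptor and its signaling all passed, and 2 were higher and 1 lower, a smaller share than the 23.3% over all genes. Lat, an adaptor, was higher by 1.22 on the log2 scale (SE 0.15) and Gab2, a scaffold, by 0.63 (SE 0.10), with mouse 3 the highest for Lat (4155 counts, against 2170 to 2562 in the other oxaliplatin mice), while Fcer1g, the gamma chain shared with other Fc receptors, was at 0.03 (SE 0.15, adjusted p = 0.888). Many of these genes act in other blood cells too.

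Of 10 growth factors and attractants 6 passed the filter and 4 were called (66.7%, against 23.3% over all genes), all higher. Ccl11 and Ccl24 passed the filter through the oxaliplatin group, with vehicle means of 0 and 0.148 CPM, so they had to be higher. Ccl11, the attractant eotaxin-1, had 0 counts in all 5 vehicle mice and 29, 31, 18, 18 and 11 in oxaliplatin mice, at least 6.09-fold higher against a floor of 3 counts per library. Ccl24, eotaxin-2, was higher by 2.20 on the log2 scale (SE 0.65, adjusted p = 0.020), Kitl, the stem cell factor, by 1.21 (SE 0.13, adjusted p = 1.84e-05) and Tslp by 0.87 (SE 0.30, adjusted p = 0.0396). Il33 did not pass (0.54, SE 0.44, adjusted p = 0.389), and Il3, Il5 and Csf2 had at most 5 counts in any marrow library.

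Of 10 receptors all passed and 40.0% were called, against 23.3% over all genes. Il4ra was higher by 0.66 (SE 0.20, adjusted p = 0.0206), and Ccr3, Il5ra (-1.65, SE 0.30) and Il1rl1 were lower. Ccr3 thus fell, while its ligands Ccl11 and Ccl24, at or near 0 with vehicle, had to be higher by the filter. A link between them was not tested. Of 11 transcription factors 36.4% were called, and 3 were higher, Cebpa by 1.21 (SE 0.14), Mitf and Id1 by 0.91 (SE 0.13). Zfpm1, the GATA partner FOG-1, was lower by 0.88 (SE 0.19). Gata2 (0.10, SE 0.09, adjusted p = 0.433) and Gata1 (-0.22, SE 0.19, adjusted p = 0.425) did not pass. Over all 8 lists 36 of the 74 distinct genes tested were called in marrow (48.6%), 17 higher and 19 lower, where 23.3% of all genes were. The lists include the 10 genes themselves and, like Rnase2a, Ccl11 and Ccl24, genes that passed the filter through the oxaliplatin group. They were also chosen with earlier results known, so the 2 shares cannot be compared directly.

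**Figure D4:**
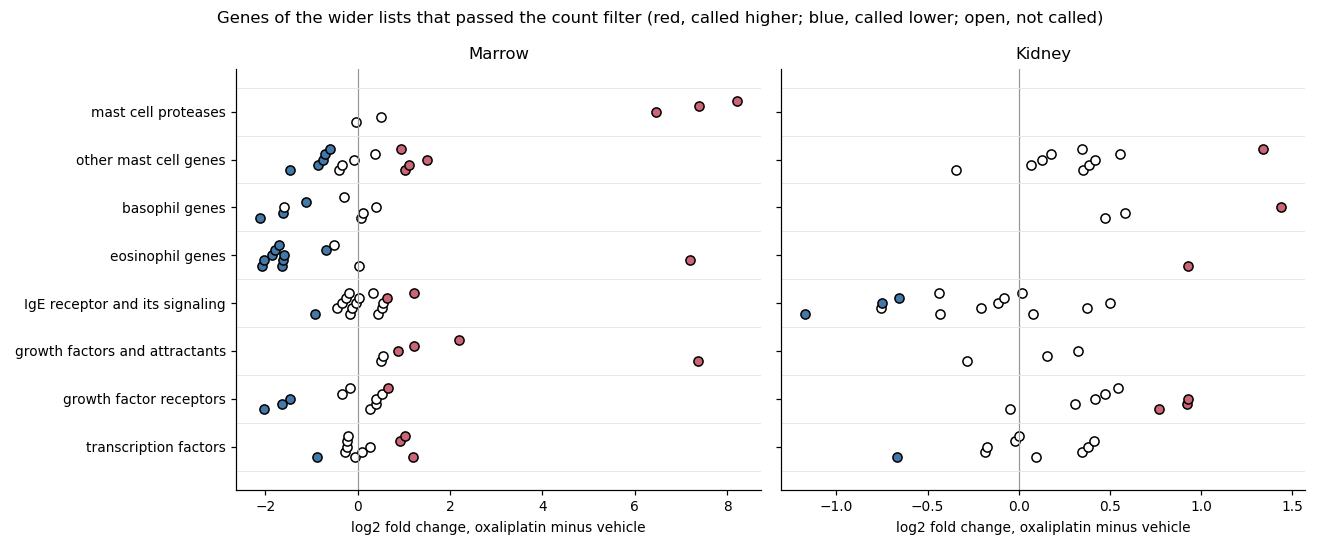
log2 fold change, oxaliplatin minus vehicle, of each listed gene that passed the count filter in marrow (left) and kidney (right). In marrow 9 of 12 eosinophil genes are called lower, while 3 mast cell proteases, Rnase2a at 7.20 and the attractants lie to the right; 36 genes are called in marrow and 9 in kidney.

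Markers of other cell types moved in the same libraries. All 7 adipocyte markers rose in marrow (median log2 fold change 6.65), with a sum of 77.1 to 144 CPM with vehicle and 497 to 2473 CPM with oxaliplatin. Of 5 skeletal muscle markers tested 4 rose, with sums of 9.51 to 93.0 against 39.5 to 701 CPM, and 3 of 8 stromal and 3 of 6 macrophage markers rose. Plin1, the adipocyte lipid droplet protein and 1 of the 7 markers, stood at 168, 70.2, 210, 283 and 21.6 CPM in oxaliplatin mice 1 to 5. All 6 late erythroid markers fell (median -2.80), as did 5 of 6 B cell markers (median -2.43), and none of the 8 neutrophil markers was called (median -0.16). The part of these shifts in the results for the 10 genes was not tested.

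In kidney the 10 genes were at or near 0. Fcer1a and Mcpt8 had 0 counts in all 10 libraries, which allows up to 3 counts in each, and the highest count of any of the 10 was 12, in Ms4a2. Cma1 had 0 counts in all vehicle kidneys and 6, 0, 0, 6 and 2 with oxaliplatin. Tpsb2 had 0, 0, 0, 2 and 0 counts against 6, 2, 1, 0 and 2. Ms4a2 had 2, 4, 2, 6 and 0 against 4, 9, 2, 12 and 10, and Epx 0, 2, 0, 1 and 0 against 5, 2, 2, 1 and 4. These counts overlap between groups.

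Since none of the 10 passed the filter in kidney, none was tested there by edgeR or DESeq2, and no count of calls can be set against the 11.5% of 19293 kidney genes that edgeR called (7.68% higher, 3.81% lower). With no filter beyond 1 count edgeR fitted 8, of which 2 had an unadjusted p under 0.05 and 1 was called, Cma1 (log2 fold change 4.47, adjusted p = 0.0433). A treatment difference in kidney was therefore mostly not detectable at this depth.

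Of the 43 distinct listed genes tested in kidney 9 were called (20.9%, against 11.5% over all genes), 5 higher and 4 lower. Here too the lists were chosen with earlier results known. Ltc4s (log2 fold change 1.34, SE 0.18), Il18r1 (1.44, SE 0.35), Il5ra (0.93, SE 0.30) and the shared beta chains Csf2rb2 (0.92, SE 0.27) and Csf2rb (0.77, SE 0.18) were higher. The kinases Btk (-1.17, SE 0.37) and Syk (-0.65, SE 0.18), the exchange factor Vav1 (-0.75, SE 0.26) and Id2 (-0.67, SE 0.20) were lower. Beside them 5 of 6 adipocyte and 5 of 7 stromal markers rose in kidney and 3 of 5 macrophage markers fell.

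In vehicle mice 7 of the 10 genes were higher in marrow than in kidney in the fit over all 20 libraries. All 7 passed that fit's filter through marrow and so had to differ. Of all 24321 genes 72.9% were called, in either direction. Summed counts relative to library totals were 803 times higher in marrow for Cpa3, 75.6 times for Ms4a2 and 22360 times for Epx, and at least 24.9 times for Fcer1a, 234 for Mcpt8, 679 for Prss34 and 9236 for Prg2 against a floor of 3 counts per kidney library. Mcpt4, Cma1 and Tpsb2 were at or under the floor in both tissues. In the same fit the interaction of tissue and treatment passed for 2 of the 10 genes and for 30.1% of all genes. These shares cannot be compared, because kidney counts at or near 0 left the interaction poorly estimated for most of the 10. Its SE was 1019 for Fcer1a, 3471 for Mcpt8 and 12.0 for Cma1. The interaction was -3.50 for Epx (marrow minus kidney log2 fold change, SE 1.00, adjusted p = 0.0105) and -2.004 for Ms4a2 (SE 0.65, adjusted p = 0.0233). Both genes passed the filter of that fit through marrow and had 0 to 12 counts in a kidney library, and Ms4a2 was lost without kidney oxaliplatin mouse 4 (adjusted p = 0.0637) and with a covariate of Y-linked genes (adjusted p = 0.0508), so the kidney side of these values is weak.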

How the data were processed

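Gene-level raw counts were deposited by the authors in 1 table per tissue. Per the labels, libraries came from total RNA after RNase-H depletion of ribosomal RNA, with random hexamer priming; the tools named are bcl2fastq, STAR, featureCounts of Subread and Salmon. The study's methods name another library kit, and which applies was not settled. Gene symbols and IDs are those of the deposited files, and coordinates are from GENCODE M21 (GRCm38). For each tissue, 287 repeated IDs with the same counts and 1 incomplete line were dropped. Of the counts from 1 to 10, 70.8% in marrow and 72.4% in kidney were even; the sources do not say whether mates of a pair were counted singly, and intervals on counts assume independent counts. The floor of 3 counts per library is the upper limit that a count of 0 allows.

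Within each tissue edgeR 4.0.16 (robust quasi-likelihood, TMM scaling, filterByExpr at a minimum count of 10) compared oxaliplatin with vehicle, with Benjamini-Hochberg adjustment over all genes tested; p-values measure the spread between mice. Interactions came from 1 fit of all 20 libraries. The genes likened to Cpa3, Mcpt8 and Epx were the 5 with the highest r. Alternatives included DESeq2 1.42.0, other scalings and filters, and leaving out each mouse. The scripts were tested on simulated data. From each list the text names up to 4 called genes with the largest change, and ligands and receptors that were not called. For the other mast cell genes in marrow all called genes are named, and for the basophil genes in marrow all tested ones. Tpsab1, Mrgprb1, Gata1 and Gata2 were chosen after their values were seen. The members and lists were chosen with earlier results of these data known.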

Additional observations from a re-analysis of the deposited data

Results flagged for a closer look

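In 10 of 77 groups of 5 libraries 1 library lay far from the others (Dixon's criterion), where chance marks about 1 in 20. In oxaliplatin marrow mouse 1 reached 7.55 CPM for Mcpt4, 7.49 for Cma1 and 9.10 for Tpsb2, mouse 4 reached 45.3 CPM for Prss34, and mouse 3 reached 247 CPM for Rab27b and 96.8 CPM for Lat. In vehicle marrow the highest values were 0.0630 CPM for Cma1, 0.0325 for Tpsb2 and 0.175 for Rnase2a, which are 2, 1 and 6 counts. In vehicle kidney Ltc4s reached 2.74 CPM in 1 mouse.

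The interaction of tissue and treatment in the fit over 20 libraries was -3.50 (SE 1.00) for Epx and -2.004 (SE 0.65) for Ms4a2. Both rest on kidney counts of 0 to 12 in genes under the kidney filter, and Ms4a2 did not pass without kidney oxaliplatin mouse 4 (adjusted p = 0.0637).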

How the results depend on the processing

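The 8 members called in marrow stayed at 8 in each fit that left out 1 mouse and at 6 to 8 under every other setting. They were 6 when tested against a 1.5-fold change and 7 at a fold beyond 2. Under a count filter the calls of Mcpt4, Cma1 and Tpsb2 were fixed by the filter, so only the other called members inform on stability. Ms4a2's adjusted p reached 0.0480 with library size alone (edgeR). Mcpt8 was lost with no filter (adjusted p = 0.0539), and with counts halved, added after seeing the data, Mcpt4 and Cma1 fell below the filter. Cpa3's log2 fold change turned to 0.12 with library size alone, 0.046 with a covariate of Y-linked genes, 0.017 with all 20 libraries in one fit, and ran from -0.25 to 0.13 over the fits without 1 mouse. The listed genes called in marrow went from 36 to 23 when tested against a 1.5-fold change (31 to 38 without 1 mouse). In kidney the members called went from 0 to 1 with no filter, and the listed genes from 9 to 1 when tested against a 1.5-fold change, 18 with no fold threshold and 3 at a fold beyond 2 (6 to 9 without 1 mouse). The 2 interactions became 5 with DESeq2, 1 with the Y-linked covariate (Ms4a2 adjusted p = 0.0508), and 1 to 3 without 1 mouse. The interaction of Cpa3 ran from -2.33 to 2.54 without 1 mouse, and that of Fcer1a was 0.17 with the Y-linked covariate. Same-numbered libraries shared little of their deviation (r from -0.12 to 0.23 in marrow and -0.15 to 0.08 in kidney between treatments). Between kidney and marrow of one number and treatment r ran from -0.05 to 0.16. Such values cannot exclude a pairing by number, and the main fits used none. With a replicate block the marrow members stayed at 8, the interactions were 4, and the differences of the Cma1 pairs, which carry no test here, stood at 6.10 and 6.59 as without it. Epx minus Mcpt8 ran from -0.87 to -0.33 without 1 mouse, with -0.87 reached without oxaliplatin mouse 2. Depth limits the kidney values and the vehicle levels of Mcpt4, Cma1 and Tpsb2.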
